A study of Mus musculus with 24 samples.

Results

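The genes described here encode the coats, cargo receptors and tethers that carry material between the endoplasmic reticulum (ER) and the Golgi. They were taken by symbol from the deposited counts: the COPI subunits, the COPII coat proteins with the Sec16 scaffolds, the Sec22 genes, the Tmed genes of the p24 family, and the subunits of the TRAPP and COG tethers. The rule found 57 of 24091 genes, which were 9 COPI, 11 COPII, 3 Sec22, 11 p24, 15 TRAPP and 8 COG genes. Of these, 54 had enough reads to be tested.

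COPII vesicles bud from ER exit sites marked by Sec16, with an inner layer of Sec23 and Sec24 that gathers cargo and an outer cage of Sec13 and Sec31. COPI vesicles, built on the small GTPase Arf1, return escaped ER proteins and Golgi enzymes. The p24 proteins shuttle in both coats as cargo receptors, TRAPP tethers incoming vesicles and activates Rab GTPases, and COG tethers the vesicles that keep glycosylation enzymes in place. Blood stem and progenitor cells send growth factor receptors, adhesion molecules and granule proteins along this route.

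Bulk RNA-seq had been made from bone marrow LSKs, the lineage-negative, Sca-1+, c-Kit+ cells that hold stem cells and early progenitors, of 24 CD45.2 C57BL/6 (B6) mice. The 4 groups held 6 mice each, 3 females and 3 males, and each library came from 1 mouse. WT mice had miR-142 and no BCR-ABL, miR-142 KO mice were miR-142-/- without BCR-ABL, CP CML mice carried SCLtTA/BCR-ABL with miR-142 intact, and BC CML mice carried SCLtTA/BCR-ABL on the miR-142-/- background. In both CML groups BCR-ABL was driven through the SCL promoter in cells where that promoter is active, and LSKs were sorted 2 weeks after tetracycline was withdrawn to switch it on. BC CML is therefore a genotype at a fixed time here, and ages were not given in the sources used here. The comparisons ask what loss of miR-142 did to these genes in normal and in BCR-ABL LSKs, and what BCR-ABL did with and without miR-142.

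Mir142, the deleted gene, had 94 to 127 counts in WT and 68 to 153 counts in CP CML libraries and 0 counts in all 12 miR-142 KO and BC CML libraries, where a count of 0 allows up to 3. Total counts were 16267965 to 24687077 per library. Levels are given as CPM, the count of a gene scaled to the same total in every library, and for single genes as the lowest, median and highest of the 6 libraries of a group. Changes are log2 fold changes ± SE, also where no unit stands beside them, and a library's number only names it. Among the genes of the sort, Kit was at 662 to 1240 CPM and Ly6a (Sca-1) at 30.7 to 155 CPM across all libraries, but in miR-142 KO LSKs Ly6a was higher (log2 change 1.15 ± 0.21, adjusted p = 0.000201) and Flt3, a receptor of lymphoid-primed progenitors, was lower (log2 change -1.23 ± 0.15, adjusted p = 9.16e-07) than in WT LSKs. In BC CML against CP CML LSKs the same genes moved, Ly6a by 1.09 ± 0.21 and Flt3 by -1.23 ± 0.15, and Kit fell (log2 change -0.46 ± 0.09, adjusted p = 0.000546), all 3 without overlap. Markers of other cell types moved with genotype too. All 7 plasma cell markers fell on loss of miR-142, and their summed level was 62.8 to 1011 CPM (WT), 5.31 to 21.8 (miR-142 KO), 166 to 815 (CP CML) and 7.68 to 25.5 (BC CML). All 8 markers of neutrophil-primed progenitors rose in miR-142 KO and 4 of 8 in BC CML against CP CML, with summed levels of 1293 to 4911, 2835 to 7657, 4550 to 7729 and 5917 to 8694 CPM in the same order. Mast cell and basophil markers summed to 72.5 to 342, 219 to 1490, 1086 to 2117 and 3228 to 7216 CPM, and long-term stem cell markers, of which 5 of 8 fell and 1 rose in each miR-142 comparison, to 522 to 967, 288 to 498, 370 to 498 and 223 to 324 CPM. In miR-142 KO 5 of 8 mature neutrophil, 4 of 5 megakaryocyte, 2 of 3 T or NK, 1 of 7 monocyte or dendritic, 0 of 6 erythroid and 0 of 7 B lineage markers rose. In the same order 0, 1, 0, 1, 1 and 0 fell. In BC CML against CP CML 0, 0, 1, 0, 0 and 0 of these rose and 3, 2, 0, 2, 2 and 1 fell. Against WT, 5 of 6 erythroid markers fell in CP CML. Some of these levels rose and some fell between the groups in which coat and tether genes moved, and their part in the results was not tested. In bulk RNA, fewer cells of a type and less RNA per cell cannot be told apart.

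MiR-142 makes a pair of mature strands, read here from RefSeq (GRCm38.p6). They are shown because 13 of the 57 genes hold a match to 1 of their seeds, bases 2 to 8, which are in capitals. The strands lie on the plus strand at chr11:87756867-87756887 and chr11:87756903-87756925.
mmu-miR-142a-5p: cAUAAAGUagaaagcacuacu
mmu-miR-142a-3p: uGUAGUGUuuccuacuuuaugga

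The DNA letters that pair with the seed of the 3p strand are ACACTAC. They occur in the 3′ UTR (GENCODE M21, GRCm38, 1 transcript per gene, sense strand) of 8 of the 54 tested genes, or 14.8%, against 774 of 12471 tested genes with a 3′ UTR, or 6.21%. The median 3′ UTR was 733 bases in the coat and tether genes and 961 bases in all tested genes. The 8 genes were Cog4 with 2 matches, and Cog8, Copg1, Copg2, Sec24a, Sec24c, Trappc13 and Tmed1 with 1 each. Each match is printed below in capitals with its flanks, 5′ to 3′ along the mRNA strand, to show the letters that any later count of matches rests on. Among the 3 largest rises in each miR-142 comparison, Tmed3 and Sec24d in miR-142 KO and Copz2 in BC CML hold no 3p match. Tmed1 in both and Cog4 in BC CML hold a match, and a part of the match in the rises was not tested. A match is a description of letters and not a shown binding site.
Cog4, chr8:110882116-110882142, plus strand: tctcgcccgcACACTACaacacacatg
Cog4, chr8:110882202-110882227, plus strand: acaaataaagACACTACctggagaca
Cog8, chr8:107046643-107046669, minus strand: aaggtgtatcACACTACtgctggactt
Copg1, chr6:87912325-87912351, plus strand: atcttgtccaACACTACgtcgaagcca
Copg2, chr6:30747772-30747798, minus strand: ctaggcaggcACACTACcactgagcta
Sec24a, chr11:51692973-51692999, minus strand: ttgcagtaagACACTACccgtcctacc
Sec24c, chr14:20693952-20693978, plus strand: gggctcaaatACACTACcactctgtca
Trappc13, chr13:104143972-104143998, minus strand: tgttgtaaaaACACTACttttatcttt
Tmed1, chr9:21508090-21508116, minus strand: ctcagatgagACACTACatagttgggt

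The match to the 5p seed, ACTTTAT, was found in 5 tested genes (9.26%), against 14.3% of all tested genes with a 3′ UTR. These were Sec23a, Sec22a with 2 matches, Trappc8, Tmed5 and Tmed8. Sec23a, the only one of the 5 that rose on loss of miR-142 in both normal and CML LSKs, is shown.
Sec23a, chr12:58959463-58959489, minus strand: gaattatttgACTTTATagtagcaatt

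Coat and tether transcripts were mostly higher in LSKs without miR-142, by small amounts. In miR-142 KO against WT LSKs 28 of 54 genes rose and 1 fell, with a median log2 fold change of 0.13, against 0.01 over all 13520 genes tested. Of all genes tested, 19.9% rose and 16.4% fell in that comparison. In BC CML against CP CML LSKs 28 rose and 5 fell, with a median of 0.16 against 0.01, where 20.4% of all genes rose and 17.6% fell. A gene was called when its Benjamini-Hochberg adjusted p in edgeR's quasi-likelihood test, over all genes, was under 0.05. Under upper quartile normalization the first split was 22 rose and 4 fell.

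The 6 libraries of each group did not overlap for 14 genes that were higher and 0 that were lower on loss of miR-142 in normal LSKs, where 8.31% and 6.15% of all genes did so. Between BC CML and CP CML the groups separated for 17 higher and 1 lower, against 11.4% and 9.29% of all genes. Both comparisons called 22 of the genes as higher, which is 78.6% of the rises in each, and over all genes 1560 rises were shared, 58.1% and 56.6% of the respective lists. These 2 comparisons share no library.

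**Figure D1:**
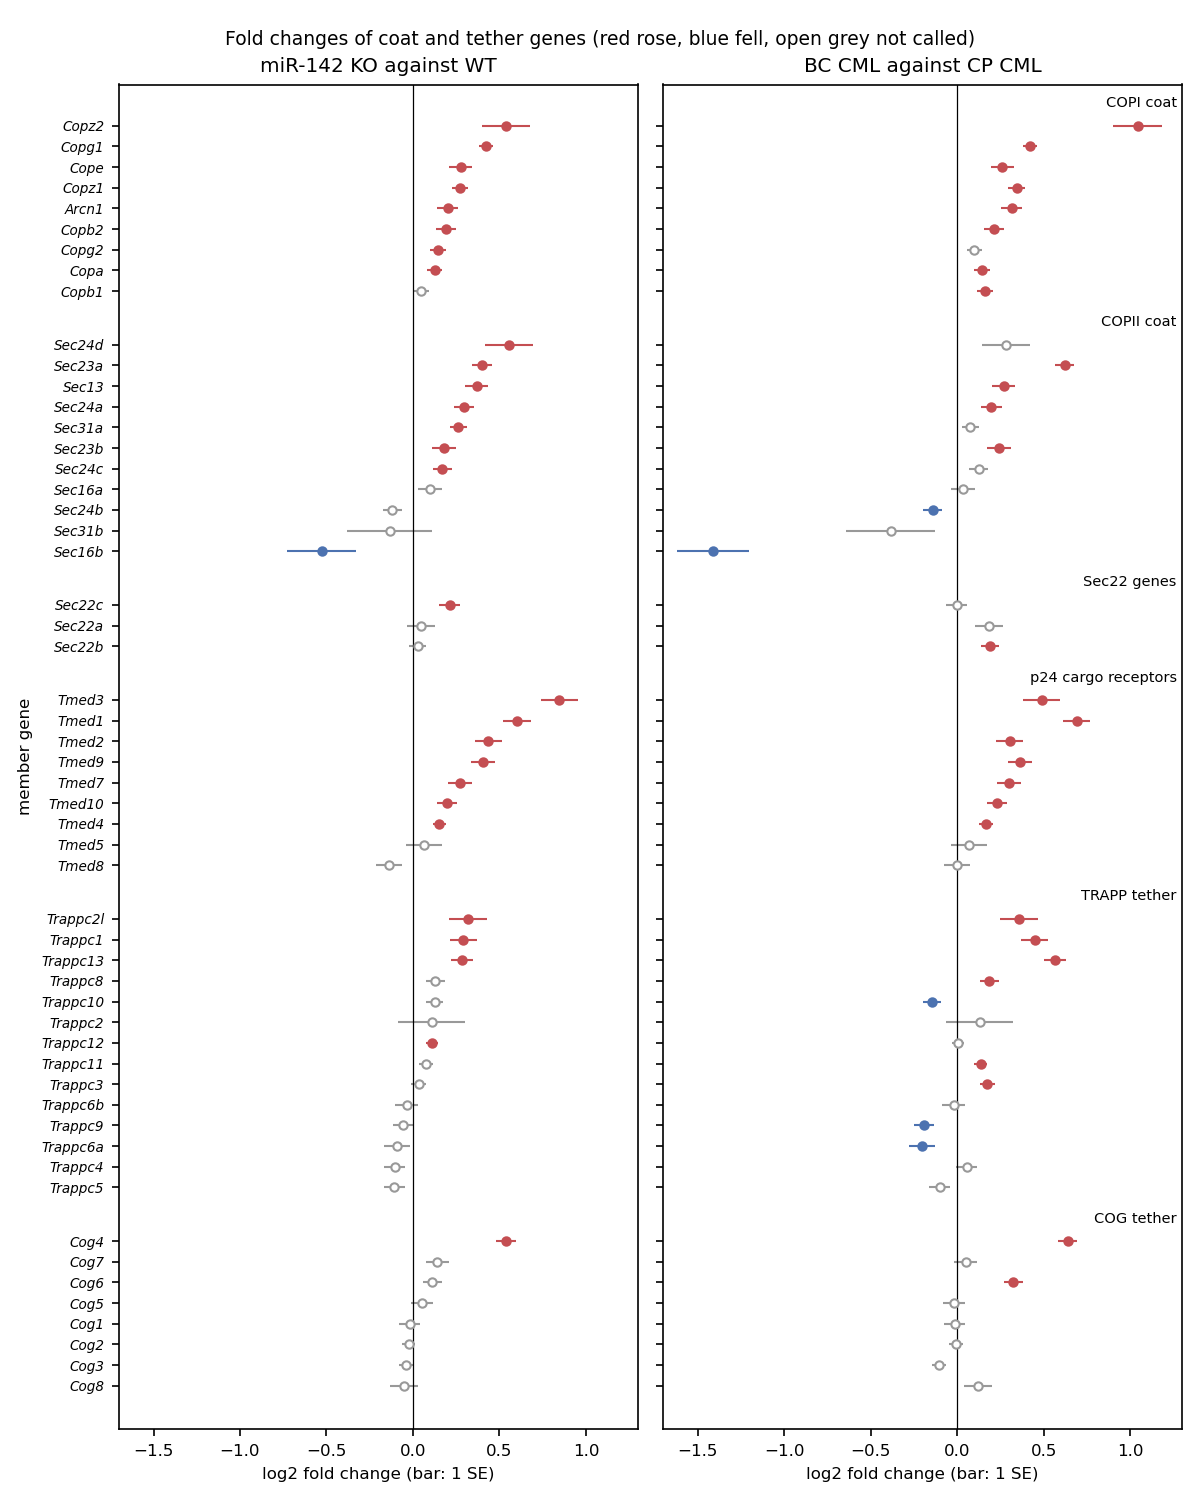
Log2 fold change of each of the 54 tested genes, by role, in miR-142 KO against WT (left) and BC CML against CP CML (right) LSKs, with 1 SE. Red points rose, blue points fell and open grey points were not called; COPI and p24 genes lie almost wholly to the right of 0 in both panels, while most COG genes lie near 0.

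With BCR-ABL the rises again outnumbered the falls, which were more than on loss of miR-142. In CP CML against WT LSKs 22 rose and 7 fell (median 0.09, against -0.02 over all genes), where 22.5% and 22.9% of all genes did. In BC CML against miR-142 KO LSKs 25 rose and 7 fell (median 0.13, against -0.02), where 20.3% and 19.3% of all genes did. Groups did not overlap for 8 higher and 4 lower in the first (11.9% and 9.87% of all genes) and for 6 higher and 1 lower in the second (6.09% and 4.48%). Each of these comparisons shares a group with the miR-142 comparisons, so their values are given side by side and not as separate evidence. Rises in all 4 comparisons were called for 14 genes: Arcn1, Copb2, Copg1 and Copz1 of COPI, Sec13, Sec23b and Sec24a of COPII, Tmed1, Tmed2, Tmed4, Tmed7, Tmed9 and Tmed10 of the p24 family, and Trappc2l. These were 25.9% of the 54 genes, against 568 of all 13520 genes tested (4.20%), and since the 4 comparisons share groups they are not independent. At the other end, Cog3, Cog7, Sec16a, Sec22a, Tmed8, Trappc2, Trappc5 and Trappc6b were called in none (14.8%, against 24.5% of all genes), the difference of the miR-142 effects included.

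**Figure D2:**
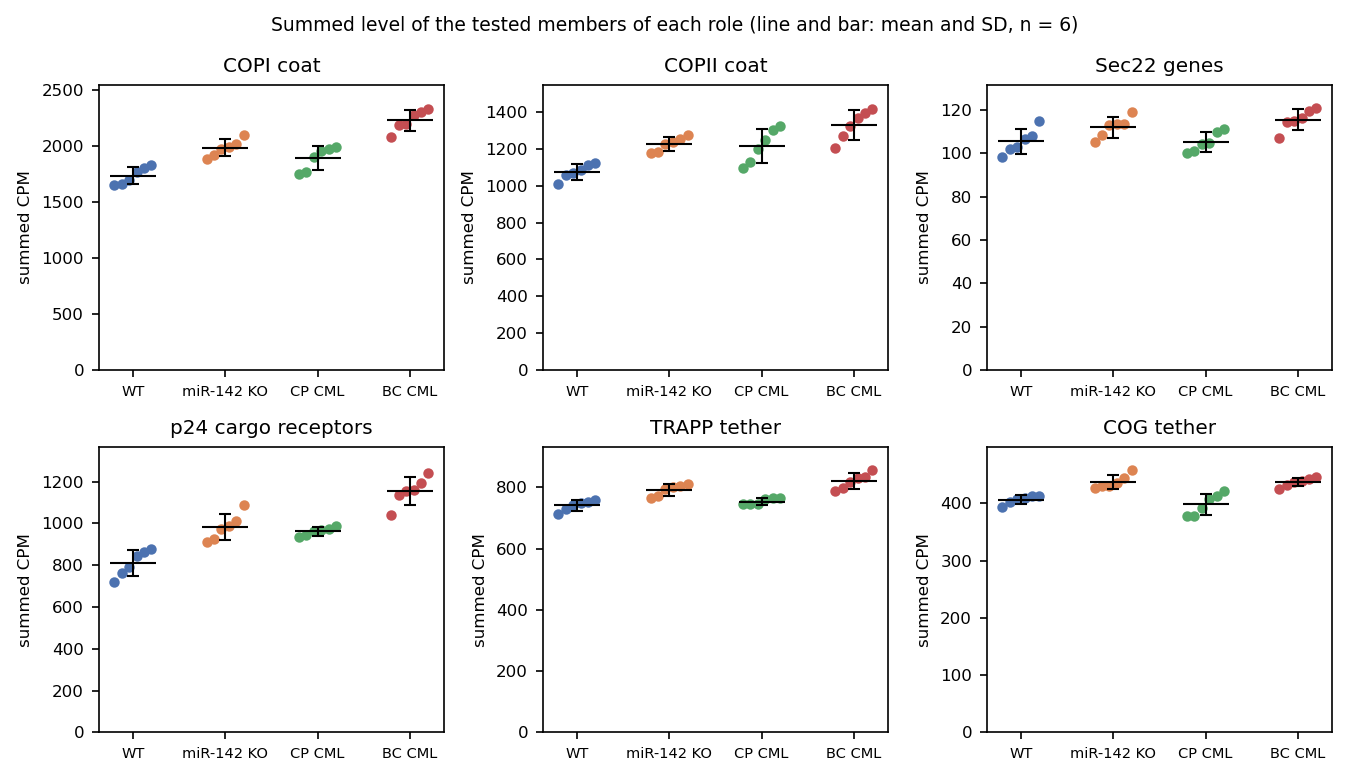
Summed CPM of the tested genes of each role in every library, with the mean and SD of 6 libraries, points ordered by level within a group. COPI sums of 1650 to 1829 CPM (WT) and 1889 to 2104 (miR-142 KO) do not overlap, nor do sums of 1756 to 1997 (CP CML) and 2084 to 2329 (BC CML).

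Genes were ordered per kilobase of deposited gene length, whose definition is not given in the sources used here, so the order depends on it. On this scale the most abundant transcript in WT LSKs was Copb2, the COPI β′ subunit, at 82.9 ± 6.17 CPM per kb (SD, n = 6). Tmed9 and Tmed10, a pair of p24 receptors, followed at 71.1 ± 8.16 and 62.0 ± 4.05, then Copb1 at 61.0 ± 3.44, Copz1 at 58.7 ± 4.14, Copa at 58.1 ± 3.42 and Sec13 at 57.4 ± 4.84. From Tmed10 to Sec13 neighbours in this order did not differ beyond their spread. At the low end of the tested genes were Copz2 at 2.02 ± 0.34, Sec31b at 1.79 ± 0.48, Trappc2 at 1.06 ± 0.21 and Sec16b at 0.92 ± 0.17. Tmed11 had 0 counts in all 24 libraries, Trappc3l had 1 count in 1 CP CML library and 0 elsewhere, and Tmed6 had at most 6 counts; these 3 were not tested.

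In the accounts of single genes, a change in miR-142 KO is against WT, a change in CP CML is against WT, and a change in BC CML is against CP CML unless another group is named, with miR-142 KO first where 2 values follow each other. Beside the counts by role and by list that follow, these are the shares of all genes tested. In miR-142 KO 19.9% rose and 16.4% fell, and in BC CML 20.4% and 17.6%. In CP CML 22.5% rose and 22.9% fell, and in BC CML against miR-142 KO 20.3% and 19.3%. COPI subunits moved together. In miR-142 KO against WT LSKs 8 of 9 rose and 0 fell (median log2 fold change 0.20), and in BC CML against CP CML LSKs 8 of 9 rose and 0 fell (median 0.26). With BCR-ABL, 5 rose and 1 fell in CP CML against WT (median 0.15), and 5 rose and 0 fell in BC CML against miR-142 KO (median 0.16). The exceptions were Copb1, a β subunit, which was not called in miR-142 KO (log2 change 0.05 ± 0.05, adjusted p = 0.415), and Copg2, a γ subunit, which was not called in BC CML (log2 change 0.10 ± 0.05, adjusted p = 0.0883).

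Copg1, the other γ subunit, had the smallest adjusted p of the COPI genes in both miR-142 comparisons. It was at 186, 194 and 201 CPM (WT), 251, 259 and 276 (miR-142 KO), 193, 224 and 229 (CP CML) and 273, 294 and 302 (BC CML). The miR-142 KO libraries all lay above the WT libraries and the BC CML libraries all above the CP CML libraries, by the same amount (log2 change 0.42 ± 0.04, adjusted p = 6.52e-08, and log2 change 0.42 ± 0.04, adjusted p = 5.24e-08).

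Copz1, the ζ subunit with the more abundant transcript, was at 132, 141 and 156 CPM (WT), 161, 171 and 186 (miR-142 KO), 146, 158 and 168 (CP CML) and 189.8, 200.4 and 214 (BC CML). It rose in both (log2 change 0.27 ± 0.05, adjusted p = 0.000111 in miR-142 KO, and log2 change 0.34 ± 0.05, adjusted p = 6.58e-06 in BC CML), and neither pair of groups overlapped. Its scarce paralog Copz2 was at 2.84, 3.59 and 4.30 CPM (WT), 3.72, 5.37 and 6.19 (miR-142 KO), 2.00, 2.44 and 2.82 (CP CML) and 3.81, 5.10 and 5.95 (BC CML). Copz2 rose in BC CML against CP CML with no overlap (log2 change 1.04 ± 0.14, adjusted p = 4.67e-06) and in miR-142 KO with overlap (log2 change 0.54 ± 0.14, adjusted p = 0.00386). It fell in CP CML against WT (log2 change -0.54 ± 0.14, adjusted p = 0.00358), and CP CML held the lowest level. At a few CPM it adds little to the summed coat.

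Cope, the ε subunit, was at 64.1, 68.9 and 78.7 CPM (WT), 79.1, 83.8 and 90.3 (miR-142 KO), 66.3, 82.6 and 88.5 (CP CML) and 87.8, 95.3 and 99.5 (BC CML). It rose by 0.27 ± 0.07 in miR-142 KO, where groups did not overlap, and by 0.26 ± 0.07 in BC CML, where they did. The δ subunit Arcn1 rose by 0.20 and 0.32 on loss of miR-142 in normal and CML LSKs, Copb2 by 0.19 and 0.21, and Copa, the α subunit, by 0.12 and 0.14, and the change of Copa was the smallest of the called COPI genes in both miR-142 comparisons. Its call was lost without WT library 1, 4 or 5 in the first comparison, and without CP CML library 5 or 6 or BC CML library 2 or 4 in the second (adjusted p up to 0.0728 and 0.0817). It was also lost under upper quartile normalization in both, and in the first under the likelihood ratio test, without a filter and with only the 12 libraries compared (adjusted p up to 0.179). Copa shares 221 bases with Ncstn on the other strand, and the strand setting of the counting is not given in the sources used here. Ncstn moved by 0.18 in miR-142 KO and by -0.002 in BC CML, and a part of it in the Copa counts was not tested.

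**Figure D3:**
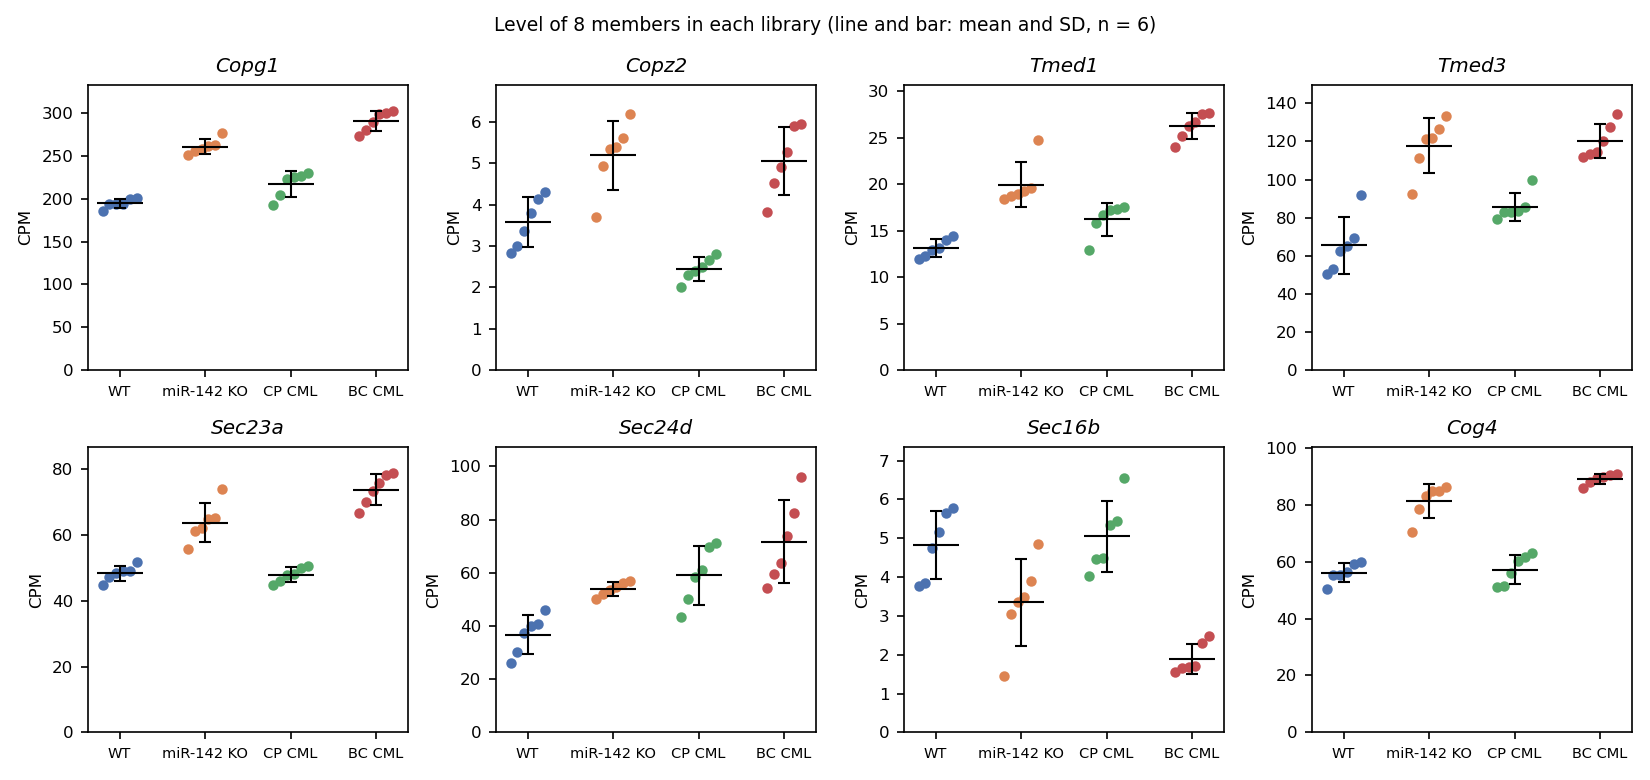
CPM of 8 genes in each library, with the mean and SD of 6 libraries, points ordered by level within a group. Copg1, Tmed1, Tmed3, Sec23a and Cog4 were higher without miR-142 in both pairs of groups, Copz2 was lowest in CP CML and Sec16b lowest in BC CML.

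COPII genes were less uniform. On loss of miR-142 in normal LSKs 7 of 11 rose and 1 fell (median log2 fold change 0.18), and in BC CML against CP CML LSKs 4 rose and 2 fell (median 0.13). In CP CML against WT 5 rose and 1 fell, and in BC CML against miR-142 KO 5 rose and 2 fell. Genes that rose in miR-142 KO were Sec13, Sec31a, Sec23a, Sec23b, Sec24a, Sec24c and Sec24d, which span both layers of the coat.

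Sec23a, the GTPase-activating subunit of the inner layer, was at 44.8, 48.7 and 51.7 CPM (WT), 55.6, 63.5 and 73.9 (miR-142 KO), 44.9, 48.2 and 50.7 (CP CML) and 66.9, 74.5 and 78.7 (BC CML). It was higher without miR-142 in both settings with no overlap (log2 change 0.40 ± 0.06, adjusted p = 8.14e-06 in miR-142 KO, and log2 change 0.62 ± 0.06, adjusted p = 1.41e-08 in BC CML). In CP CML it was not called (log2 change -0.01 ± 0.06, adjusted p = 0.878). Its paralog Sec23b was at 77.9, 93 and 99.2 CPM (WT), 95, 104 and 116 (miR-142 KO), 93.3, 111 and 122 (CP CML) and 119, 124 and 142 (BC CML), and it rose by smaller amounts (log2 change 0.18 ± 0.07, adjusted p = 0.0482, and log2 change 0.24 ± 0.07, adjusted p = 0.00862). The call of Sec23b in miR-142 KO was lost on leaving out any 1 of 6 libraries (WT 1, 4 and 5, and miR-142 KO 1, 3 and 5), with adjusted p up to 0.107, and under upper quartile normalization, without a filter and with only the 12 libraries compared (up to 0.128).

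Sec13, of the outer cage and also of the nuclear pore, rose in all 4 comparisons, at 66.4, 72.9 and 82.6 CPM (WT), 86.6, 92.6 and 114 (miR-142 KO), 89.1, 104 and 113 (CP CML) and 111, 124 and 129 (BC CML). Its log2 fold change was 0.37 ± 0.07 in miR-142 KO against WT, 0.45 ± 0.07 in CP CML against WT and 0.27 ± 0.07 in BC CML against CP CML. Sec31a, its partner in the cage, was at 205, 214 and 221 CPM (WT), 243, 254 and 274 (miR-142 KO), 222, 252 and 269 (CP CML) and 237, 268 and 284 (BC CML). It rose in miR-142 KO (log2 change 0.26 ± 0.05, adjusted p = 0.000163) and in CP CML (log2 change 0.22 ± 0.05, adjusted p = 0.000716), each without overlap with WT. It was not called between BC CML and CP CML (log2 change 0.08 ± 0.05, adjusted p = 0.217).

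The 4 Sec24 genes, which recognise different sorting signals on cargo, went different ways. Sec24d was at 25.9, 38.6 and 46.1 CPM (WT), 50, 54.2 and 56.8 (miR-142 KO), 43.2, 59.8 and 71.4 (CP CML) and 54.4, 68.7 and 95.9 (BC CML). The WT median was the lowest, and Sec24d rose in miR-142 KO (log2 change 0.56 ± 0.14, adjusted p = 0.0033) and in CP CML (log2 change 0.68 ± 0.14, adjusted p = 0.000457). The BC CML libraries spread widely and were not called against CP CML (log2 change 0.28 ± 0.14, adjusted p = 0.114). Sec24a was at 42.7, 48.7 and 50.5 CPM (WT), 53.4, 58.4 and 62.5 (miR-142 KO), 54.4, 61.7 and 64.9 (CP CML) and 62.3, 69.5 and 75.9 (BC CML), and it rose in both (0.30 ± 0.06 and 0.20 ± 0.06). Sec24c, at 205, 223 and 244 CPM in WT and 241, 252 and 260.4 in miR-142 KO, rose in miR-142 KO alone of that pair (log2 change 0.17 ± 0.05, adjusted p = 0.0184, and log2 change 0.13 ± 0.05, adjusted p = 0.0728 in BC CML), a call lost under upper quartile normalization (adjusted p = 0.0813). Sec24b was at 114, 119.5 and 134 CPM in CP CML and 97.6, 112 and 118 in BC CML, and it fell slightly in BC CML with overlapping groups (log2 change -0.14 ± 0.05, adjusted p = 0.042), a call that was lost without CP CML library 3 or BC CML library 5 (adjusted p up to 0.0655). The rise of Sec24a in BC CML was lost without CP CML library 4 or BC CML library 1 (adjusted p up to 0.0511).

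The scarce paralogs Sec16b and Sec31b fell in different comparisons. Sec16b, the short Sec16 scaffold, was at 3.76, 4.96 and 5.77 CPM (WT), 1.46, 3.43 and 4.86 (miR-142 KO), 4.02, 4.92 and 6.56 (CP CML) and 1.57, 1.70 and 2.47 (BC CML). All BC CML libraries lay below all CP CML libraries (log2 change -1.41 ± 0.21, adjusted p = 1.28e-05). In miR-142 KO the groups overlapped and the fall was smaller (log2 change -0.53 ± 0.20, adjusted p = 0.0422), and this call was lost on leaving out any 1 of 8 libraries (WT 1 to 4, and miR-142 KO 1, 3, 4 and 5), with adjusted p up to 0.0967, and without a filter and with only the 12 libraries compared (up to 0.104). Sec31b was at 5.25, 6.43 and 10.3 CPM (WT), 1.64, 6.96 and 9.11 (miR-142 KO), 3.05, 3.79 and 4.30 (CP CML) and 1.93, 2.91 and 3.68 (BC CML). It fell in both BCR-ABL comparisons (log2 change -0.90 ± 0.25, adjusted p = 0.006 in CP CML, and log2 change -1.15 ± 0.26, adjusted p = 0.00137 in BC CML against miR-142 KO) and was not called for loss of miR-142 (log2 change -0.14 ± 0.25, adjusted p = 0.698, and log2 change -0.38 ± 0.26, adjusted p = 0.249). Sec16a, the major scaffold, was called in none, at 0.10 ± 0.07 in miR-142 KO and 0.03 ± 0.07 in BC CML.

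The Sec22 genes moved little. Sec22b, the SNARE that acts between ER and Golgi, was at 54.3, 56.8 and 62.8 CPM (WT), 56.6, 57.8 and 61.5 (miR-142 KO), 53.1, 59.9 and 61.9 (CP CML) and 62.2, 67 and 71 (BC CML). The BC CML libraries lay above all CP CML and all miR-142 KO libraries, with a rise against CP CML (log2 change 0.19 ± 0.05, adjusted p = 0.00395) and none called in miR-142 KO (log2 change 0.03 ± 0.05, adjusted p = 0.684). Sec22c did the reverse, with a rise in miR-142 KO (log2 change 0.21 ± 0.06, adjusted p = 0.00843) and no call in BC CML (log2 change 0.00 ± 0.06, adjusted p = 0.984). Sec22a was called in neither (log2 change 0.05 ± 0.08, adjusted p = 0.675, and log2 change 0.18 ± 0.08, adjusted p = 0.079), although its BC CML and CP CML libraries did not overlap.

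The p24 receptors moved as widely as COPI. Of 9 tested genes, 7 rose and 0 fell in miR-142 KO against WT (median log2 fold change 0.27) and 7 rose and 0 fell in BC CML against CP CML (median 0.30). In CP CML against WT 8 rose and 0 fell (median 0.31), and in BC CML against miR-142 KO 7 rose and 0 fell (median 0.25). The summed p24 level was 717 to 876 CPM (WT), 911 to 1087 (miR-142 KO), 932 to 989 (CP CML) and 1039 to 1239 (BC CML), and no pair of groups overlapped except miR-142 KO and CP CML, and miR-142 KO and BC CML. Tmed8 was called in none, and Tmed5 was not called for loss of miR-142.

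Tmed3, a γ-type receptor, had the largest rise of all 54 genes in miR-142 KO, at 50.5, 64 and 92 CPM (WT), 92.5, 121 and 133 (miR-142 KO), 79.1, 83.4 and 99.7 (CP CML) and 112, 117 and 135 (BC CML). Every miR-142 KO library lay above every WT library (log2 change 0.85 ± 0.11, adjusted p = 2.1e-06), and every BC CML library above every CP CML library (log2 change 0.49 ± 0.11, adjusted p = 0.00102). Between the miR-142 KO and BC CML groups Tmed3 was not called (log2 change 0.03 ± 0.11, adjusted p = 0.848).

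Tmed1, which holds a 3p match, was at 12, 13 and 14.5 CPM (WT), 18.4, 19.1 and 24.8 (miR-142 KO), 12.9, 17 and 17.5 (CP CML) and 24, 26.5 and 27.7 (BC CML). It rose in miR-142 KO (log2 change 0.60 ± 0.08, adjusted p = 3.2e-06) and in BC CML against CP CML (log2 change 0.69 ± 0.08, adjusted p = 4.93e-07), both without overlap. The gene shares 380 bases with Dnm2 on the other strand, and Dnm2 moved by 0.15 and -0.03 in the same comparisons.

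Tmed9, an α-type receptor that is among the most abundant of these transcripts, was at 90.4, 109.6 and 122 CPM (WT), 132, 142 and 158 (miR-142 KO), 127, 146 and 157 (CP CML) and 159.6, 187 and 192 (BC CML). It rose in both without overlap (log2 change 0.40 ± 0.07, adjusted p = 8.52e-05, and log2 change 0.36 ± 0.07, adjusted p = 0.000251) and in CP CML against WT (log2 change 0.39 ± 0.07, adjusted p = 0.000128). Tmed2 and Tmed10, the β- and δ-type partners, rose by 0.44 and 0.20 in miR-142 KO and by 0.30 and 0.23 in BC CML. The remaining rises were Tmed4 (0.15 and 0.17) and Tmed7 (0.27 and 0.30).

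TRAPP subunits split. Of 14 tested, 4 rose and 0 fell in miR-142 KO against WT (median log2 fold change 0.09), and in BC CML against CP CML 6 rose and 3 fell (median 0.09). Against WT, CP CML had 3 rises and 2 falls, and against miR-142 KO, BC CML had 6 rises and 2 falls. The falls in BC CML against CP CML are near the share of all genes that fell (17.6%). The counts in CP CML against WT do not exceed the shares there (22.5% rose and 22.9% fell). The shared core of the complexes and the subunits found only in TRAPPII or TRAPPIII are named in turn.

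Trappc13, a TRAPPIII subunit with a 3p match, was at 78.7, 90.2 and 94.4 CPM (WT), 94, 108 and 122 (miR-142 KO), 80.4, 86.4 and 90.5 (CP CML) and 121, 125 and 143 (BC CML). The BC CML libraries lay above all CP CML libraries (log2 change 0.56 ± 0.06, adjusted p = 2.98e-07), and in miR-142 KO the rise was smaller with slight overlap (log2 change 0.28 ± 0.06, adjusted p = 0.00107). Trappc11 and Trappc8, of the same complex, rose in BC CML by 0.14 and 0.19 and were not called in miR-142 KO. Trappc12, also of TRAPPIII, rose slightly in miR-142 KO (log2 change 0.11 ± 0.04, adjusted p = 0.0194, lost under upper quartile normalization and with only the 12 libraries compared, adjusted p up to 0.201) and fell in both BCR-ABL comparisons (log2 change -0.17 ± 0.04, adjusted p = 0.000711 in CP CML, and log2 change -0.27 ± 0.04, adjusted p = 6.34e-06 in BC CML against miR-142 KO).

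Among core subunits, Trappc1 was at 20.4, 22.6 and 29.5 CPM (WT), 26.2, 28.7 and 35.4 (miR-142 KO), 23.7, 25.1 and 28.1 (CP CML) and 32.9, 35 and 36.2 (BC CML). It rose in miR-142 KO (log2 change 0.29 ± 0.08, adjusted p = 0.00568) and, without overlap, in BC CML (log2 change 0.45 ± 0.08, adjusted p = 0.000101). Trappc2l was at 9.22, 11.3 and 12.9 CPM (WT), 11.2, 14.4 and 15.5 (miR-142 KO), 11.9, 14.7 and 18.5 (CP CML) and 16.3, 19.7 and 21.2 (BC CML), with rises of 0.32 ± 0.11 in miR-142 KO, lost without WT library 1 or 4 or miR-142 KO library 5, and 0.36 ± 0.11 in BC CML. Trappc3 rose in BC CML only of that pair (log2 change 0.17 ± 0.04, adjusted p = 0.00257, and log2 change 0.03 ± 0.04, adjusted p = 0.571 in miR-142 KO). The Trappc3 gene overlaps Eno1b on the same strand in the deposited coordinates, and Eno1b moved by 0.68 in BC CML against CP CML. Trappc6a fell in BC CML (log2 change -0.20 ± 0.08, adjusted p = 0.0366), a call that was lost without CP CML library 2 or BC CML library 6 (adjusted p up to 0.0659), while Trappc2 and Trappc6b were called in none.

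The TRAPPII subunits Trappc9 and Trappc10 fell in BC CML against CP CML. Trappc9 was at 44.1, 48.2 and 51.3 CPM (WT), 40.5, 47.4 and 50.2 (miR-142 KO), 38.3, 42.3 and 43.6 (CP CML) and 33.6, 36.1 and 40.8 (BC CML), and it fell in CP CML too (log2 change -0.20 ± 0.06, adjusted p = 0.00858, and log2 change -0.19 ± 0.06, adjusted p = 0.0141 in BC CML against CP CML). Peg13, an imprinted noncoding RNA on the same strand inside Trappc9, moved by -0.58 in BC CML against CP CML. Trappc10 was at 77.8, 93 and 95.9 CPM (WT), 95, 97.3 and 103 (miR-142 KO), 99.7, 105 and 112 (CP CML) and 85.4, 95.2 and 102 (BC CML). It rose in CP CML against WT (log2 change 0.23 ± 0.05, adjusted p = 0.000953) and fell in BC CML against CP CML (log2 change -0.15 ± 0.05, adjusted p = 0.024).

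COG was nearly flat apart from Cog4. Of 8 subunits, 1 rose and 0 fell in miR-142 KO against WT (median log2 fold change 0.02), and in BC CML against CP CML 2 rose and 0 fell (median 0.02). CP CML had 1 rise and 3 falls against WT, and BC CML had 1 rise and 2 falls against miR-142 KO, the largest of them a fall of Cog8 by 0.20 in CP CML. The summed level of the 7 subunits other than Cog4 was 336 to 358 CPM (WT), 345 to 371 (miR-142 KO), 326 to 362 (CP CML) and 339 to 355 (BC CML), and all 4 groups overlapped.

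Cog4, which binds SNAREs and holds 2 matches to the 3p seed in a 3′ UTR of 362 bases, was at 50.6, 55.8 and 60 CPM (WT), 70.4, 83.9 and 86.2 (miR-142 KO), 51.2, 58 and 63 (CP CML) and 86, 89.5 and 90.9 (BC CML). It rose in miR-142 KO (log2 change 0.54 ± 0.06, adjusted p = 1.56e-07) and in BC CML against CP CML (log2 change 0.64 ± 0.06, adjusted p = 9.38e-09) with no overlap. In CP CML it was not called (log2 change 0.03 ± 0.06, adjusted p = 0.696). Cog4 shares 204 bases with Sf3b3 on the other strand, which moved by 0.01 and -0.07 in those comparisons. Cog6 was the other subunit to rise in BC CML against CP CML, at 36, 41.8 and 43.4 CPM in CP CML and 46, 50.4 and 54.2 in BC CML (log2 change 0.32 ± 0.05, adjusted p = 5.84e-05). It fell in CP CML against WT (log2 change -0.18 ± 0.05, adjusted p = 0.00816). Cog8 holds a 3p match and was not called on loss of miR-142 (log2 change -0.05 ± 0.08, adjusted p = 0.662, and log2 change 0.12 ± 0.08, adjusted p = 0.255). Cog8 overlaps Pdf on the same strand over 2325 bases, and Pdf moved by 0.41 in miR-142 KO and 0.28 in BC CML.

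The 8 genes with a 3p match were compared with the rest after the member values were known. In miR-142 KO against WT 7 of 8 rose and 0 fell, with a median log2 fold change of 0.29, while 21 of the other 46 rose and 1 fell, with a median of 0.12. Over all tested genes with a 3′ UTR, 279 of 774 with the match rose and 87 fell (median 0.09), and 2319 of 11697 without it rose and 1983 fell (median 0.01). In BC CML against CP CML 5 of 8 rose and 8 of 8 were higher (median 0.31), against 23 rises and 5 falls among the other 46 (median 0.15). Over all genes with the match 294 rose and 91 fell (median 0.13), and 2363 of 11697 without it rose and 2086 fell (median 0.02). Genes without a 3p match, by far the larger set, also rose, and a part of the match in the rises was not tested. Of the 5 genes with a 5p match, 1 rose in miR-142 KO (median 0.06) and 2 in BC CML (median 0.18). Of all 1780 genes with that match 19.9% and 23.6% rose, against 21.0% and 20.9% of those without it. Under upper quartile normalization, 5 of the 8 genes with a 3p match rose in miR-142 KO.

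**Figure D4:**
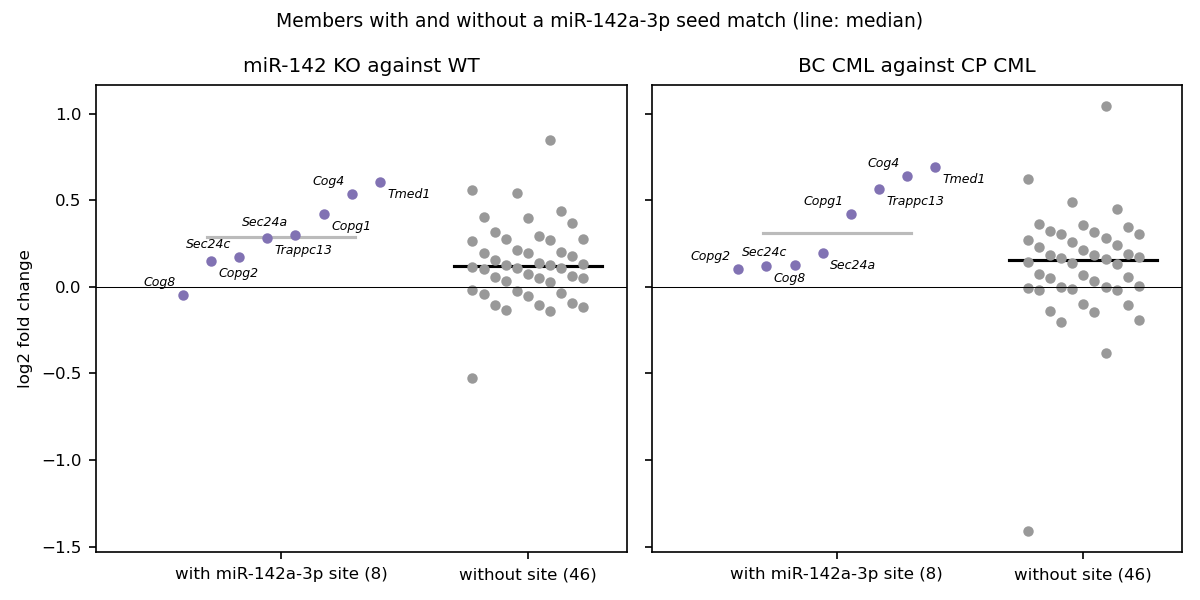
Log2 fold change of the 8 tested genes with a match to the miR-142a-3p seed (named) and the 46 without, in miR-142 KO against WT and BC CML against CP CML LSKs, with horizontal lines at the medians. The medians were 0.29 and 0.12 on the left and 0.31 and 0.15 on the right, and the 2 sets overlap widely.

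Where a subunit has paralogs, the share of each was computed per library from CPM per kb and compared with exact 2-sided permutation tests over 924 assignments, whose smallest possible p is 0.00216, adjusted over 36 tests. The levels of these shares depend on the deposited gene lengths. Copg1 made up 56.5% ± 2.12 (WT) against 61.1% ± 1.39 (miR-142 KO), and 60.1% ± 1.91 (CP CML) against 65.3% ± 1.43 (BC CML), of the γ subunit transcripts (SD of 6 libraries). Its share was larger without miR-142 in normal and in CML LSKs, with no overlap (adjusted exact permutation p = 0.00866 for both). The Copg1 share was also larger with BCR-ABL, in CP CML than in WT (adjusted exact permutation p = 0.0341). It was larger in BC CML than in miR-142 KO too, with no overlap (adjusted exact permutation p = 0.00866).

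Sec23a made up 27.2% ± 1.11 (WT) against 30.3% ± 2.36 (miR-142 KO), and 24% ± 1.69 (CP CML) against 29% ± 0.86 (BC CML), of Sec23. The share was higher in BC CML than in CP CML with no overlap (adjusted exact permutation p = 0.00866), higher in miR-142 KO than in WT (adjusted exact permutation p = 0.0278) and lower in CP CML than in WT (adjusted exact permutation p = 0.0142). Sec24d made up 10.4%, 13.9%, 14.9% and 17% of the 4 Sec24 genes in the same order. Its share was higher in miR-142 KO and in CP CML than in WT (adjusted exact permutation p = 0.00866 and 0.0195), and the step from CP CML to BC CML was not past the threshold (adjusted exact permutation p = 0.162).

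Sec16a, Sec31a and Copz1 made up at least 93.3% of their families in every library, since Sec16b, Sec31b and Copz2 are scarce. The Sec16a share was 95.3% (CP CML) and 98.2% (BC CML), and the Copz1 share 97.9% (CP CML) and 96.7% (BC CML). They moved in opposite directions, each with no overlap (adjusted exact permutation p = 0.00866 for both). The Sec31a share was 96.6% in WT and 98.4% in CP CML, also with no overlap (adjusted exact permutation p = 0.00866). The Sec22b share was higher in BC CML than in miR-142 KO (74.2% against 70.0%, adjusted exact permutation p = 0.00866), and no comparison of Trappc6a with Trappc6b, or of Trappc2 with Trappc2l, passed the threshold.

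**Figure D5:**
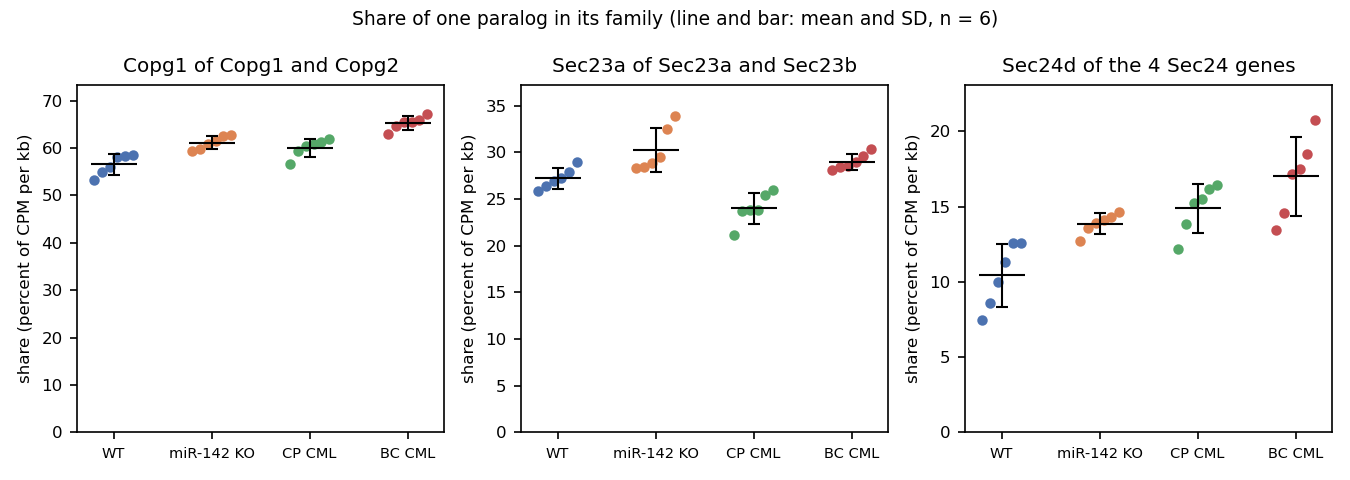
Share of Copg1, Sec23a and Sec24d in their paralog families, in percent of CPM per kb, in each library, with the mean and SD of 6 libraries. Copg1 lies at 53.3% to 58.5% in WT and 63% to 67.3% in BC CML, and Sec23a is lowest in CP CML.

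The difference between the effects of miR-142 loss with and without BCR-ABL was called for 1 of 54 genes, where 3.99% of all genes were called, so the count is near that of genes at large. It was 3 in DESeq2, 2 under upper quartile normalization, 4 without miR-142 KO library 3 and 2 without WT library 3 or 4 or CP CML library 5. That gene was Trappc10, with a log2 fold change of 0.12 ± 0.05 in miR-142 KO, short of a call, and of -0.15 ± 0.05 in BC CML against CP CML, and the difference was called (log2 change -0.27 ± 0.07, adjusted p = 0.0305). Sec16b (log2 change -0.88 ± 0.29, adjusted p = 0.0837) and Trappc13 (log2 change 0.28 ± 0.09, adjusted p = 0.0723) came next and were not called. The SE of the difference ran from 0.05 for Tmed4 and Trappc12 to 0.36 for Sec31b, so that small differences were not detectable here.

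Promoters (RefSeq, GRCm38.p6, 250 bases before to 50 after the start) were held for 49 of the 57 genes. They were searched on both strands for sequences of the ER stress response, whose factors Xbp1 and Atf6 are known to drive secretory genes. The ERSE (CCAAT, 9 unspecified bases, CCACG) was found in 0 of 49, as was the ERSE-II (ATTGG, 1 unspecified base, CCACG), against 0.153% and 0.0766% of all tested genes with a promoter. The letters TGACGTG, the core of the UPRE, whose reverse complement shares letters with the CCACG of both, were found in 5 of 49 (10.2%), against 3.19% of tested genes: Sec16b, Sec24d, Copb1, Copb2 and Sec23a. The 3 in which the match lies wholly before the start are printed along the gene strand, with the match in capitals, since they lie outside any UTR.
Sec24d, chr3:123267455-123267491, plus strand: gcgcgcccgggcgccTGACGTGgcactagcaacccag
Copb1, chr7:114254686-114254722, minus strand: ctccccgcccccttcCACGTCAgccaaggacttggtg
Sec16b, chr1:157506737-157506773, plus strand: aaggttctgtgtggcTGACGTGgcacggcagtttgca

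Of the 5 genes with these letters, Copb2 (0.19 and 0.21) and Sec23a (0.40 and 0.62) rose in both miR-142 comparisons, Sec24d rose in miR-142 KO only of the pair, Copb1 in BC CML only, and Sec16b fell in both. Of 7 secretory transcription factors 1 rose in miR-142 KO and 1 fell in BC CML against CP CML, which was Atf6 in both. Xbp1 rose in CP CML against WT (log2 change 0.69 ± 0.14, adjusted p = 0.000458) and was not called for loss of miR-142 (log2 change 0.17 ± 0.14, adjusted p = 0.368, and log2 change 0.32 ± 0.14, adjusted p = 0.0759). Atf6 rose in CP CML (log2 change 0.54 ± 0.06, adjusted p = 1.02e-06) and in miR-142 KO (log2 change 0.21 ± 0.06, adjusted p = 0.0127) and fell in BC CML against CP CML (log2 change -0.21 ± 0.06, adjusted p = 0.0117). Creb3l1, a related membrane-bound factor known for secretory cargo such as collagen, was at 0.612, 0.848 and 1.52 CPM (WT), 0.973, 1.45 and 2.12 (miR-142 KO), 13.8, 23.1 and 32.8 (CP CML) and 8.35, 14.9 and 22.8 (BC CML), with a rise in CP CML against WT (log2 change 4.47 ± 0.32, adjusted p = 7.65e-10) and no overlap.

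Other genes of the same route were taken from lists of 62 symbols, of which 60 were tested. They gave 21 rises and 1 fall in miR-142 KO against WT (median log2 fold change 0.11), and 29 rises and 4 falls in BC CML against CP CML (median 0.16). Cargo receptors outside the p24 family moved most often, with 9 of 13 rising in miR-142 KO and 12 of 13 in BC CML, and 0 falling in either. Among them, Kdelr2, a receptor that returns ER residents in COPI vesicles, was at 47.8, 57.4 and 61.6 CPM (WT), 93.1, 101 and 110.5 (miR-142 KO), 57.6, 74.9 and 85.7 (CP CML) and 119.5, 144 and 153 (BC CML) and rose in both without overlap (log2 change 0.86 ± 0.09, adjusted p = 8.61e-08, and log2 change 0.98 ± 0.09, adjusted p = 7.76e-09). Kdelr1 rose by 0.40 and 0.53, and Lman1, a lectin receptor for glycoproteins such as clotting factors, by 0.58 and 0.58.

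Of 14 GTPases and their regulators, 6 rose and 0 fell in miR-142 KO, and 8 rose and 1 fell in BC CML. Rab2a, which acts at the step between ER and Golgi, was at 91.9, 98 and 117 CPM (WT), 173, 181 and 205 (miR-142 KO), 104, 107 and 113 (CP CML) and 198, 212 and 224 (BC CML), with no overlap in either pair of groups (log2 change 0.88 ± 0.05, adjusted p = 8.5e-12, and log2 change 0.98 ± 0.05, adjusted p = 8.6e-13). Arf4 rose by 0.47 and 0.77, and the difference of its effects was called (log2 change 0.31 ± 0.09, adjusted p = 0.049). Rab1a, a target of TRAPP, rose by 0.48 and 0.52. Of 12 golgins and other tethers 3 rose in miR-142 KO and 6 in BC CML, where 2 fell. Their rises in miR-142 KO and falls in BC CML are near the shares of all genes (19.9% and 17.6%). Gorasp2, a Golgi stacking protein, rose by 0.59 and 0.34, Uso1 rose in BC CML by 0.27, and Gcc1 fell there (log2 change -0.23 ± 0.05, adjusted p = 0.000686). The ER to Golgi SNAREs resembled COG in moving little: 1 of 8 rose in each comparison, which was Stx18 in both (0.22 and 0.25), and Stx5a fell in miR-142 KO. COPII accessory genes had 1 of 6 rising in miR-142 KO and 2 of 6 in BC CML, and Tfg was called in both (0.15 and 0.27). In miR-142 KO the rises of SNAREs and of COPII accessory genes do not exceed the 19.9% of all genes.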

How the data were processed

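The members, pathway lists, markers and paralog families were chosen with earlier results of these data known. RNA from LSKs of 24 mice was sequenced from Kapa mRNA HyperPrep libraries. The authors trimmed reads with Trimmomatic and FASTP, mapped them with STAR 2.6.0 to mm10 and counted them with HTSeq 0.11.1, per the labels and the study's methods, and the deposited values are counts per gene without normalization. The annotation and the strand setting of the counting are not given in the sources used here. A further deposited column of other kind holds gene length in kb. The study's methods give a smaller number of mice per group than the 6 analysed here. Total counts ranged from 16267965 (a CP CML library) to 24687077 (a BC CML library). The limit of 3 counts behind a 0 covers counting error only.

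Genes were filtered with filterByExpr and scaled by TMM, with factors of 0.944 to 1.06, and 13520 were tested in edgeR 4.0.16 (R 4.3.3) by quasi-likelihood, all 24 libraries in 1 fit, with Benjamini-Hochberg adjustment over all genes and a threshold of 0.05. The step was tested on simulated data. CPM are counts over TMM-scaled totals, errors of log2 fold changes are SE, and other errors are SD of 6 libraries. Values by group are given for up to 3 genes per role by smallest p in the miR-142 comparisons, the 3 largest rises and falls in each comparison, genes called in the difference of effects, paralog families, genes that failed the filter and, of pathway lists, up to 3 genes by smallest p. Others were named after their values were seen. Seed matches were sought in 3′ UTRs of GENCODE M21 and motifs in RefSeq promoters, both searches chosen after member values were seen. Overlapping genes were read from the deposited coordinates. Figures and shares used Python 3.11.15, NumPy 2.4.6 and matplotlib 3.10.9. Alternatives were edgeR's likelihood ratio test, DESeq2 1.42.0, 2 other scalings, 2 other filters, sex as a covariate, only the 12 libraries compared, and each library left out.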

Additional observations from a re-analysis of the deposited data

Results flagged for a closer look

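In 9 of 148 pairs of a group and a gene with values above, 1 library stood far from the other 5, its gap to the next exceeding the 95% critical value of Dixon's test. Chance flags about 1 in 20 groups. The lowest BC CML library had 193 CPM of Sec16a, and the next 218. The lowest WT library had 107 CPM of Sec24b, and the next 123. The lowest miR-142 KO library had 1.64 CPM of Sec31b, against 6.33 in the next. For Tmed1 the highest miR-142 KO library had 24.8 CPM, against 19.5 in the next, and the lowest CP CML library had 12.9 CPM, against 15.8. The highest CP CML library had 99.7 CPM of Tmed3, and the next 85.5. Trappc1 reached 35.4 CPM in its highest miR-142 KO library, against 28.8, and Trappc13 reached 143 CPM in its highest BC CML library, against 128. The lowest BC CML library had 12 CPM of Trappc6a, and the next 14.1. The miR-142 KO flags, of Sec31b, Tmed1 and Trappc1, all fell on miR-142 KO library 3, so they are not independent of each other. That library was also the lowest of its group for Sec16b (1.46 CPM) and the highest for Sec13 (114 CPM). Without it the difference between the miR-142 effects was called for 4 genes in place of 1.

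Among the 54 tested members, only the change of Trappc10 on loss of miR-142 differed between CML and normal LSKs by the test of the difference itself. The difference was -0.27 on the log2 scale, with a fall in CML LSKs and a rise short of a call in normal LSKs. Of the 60 other pathway genes tested, 1 had a called difference above 0, which was Arf4, and 1, a secretory transcription factor, had a called difference below 0.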

How the results depend on the processing

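No paired analysis was possible because the replicate numbers follow accession order and no mouse appears in 2 groups. Of 124 calls of members, 100 held under every alternative run, and of 2491 refits 2372 kept the call, 119 lost it and 0 turned the direction. The calls lost most often were Cog8 in CP CML against WT (lost in 12), Sec16b in miR-142 KO against WT (10) and Sec23b there (9). The number of members called stayed within 1.5 times its value under every alternative in the 4 comparisons of groups, at 32 to 35 without 1 library in BC CML against CP CML, 25 to 30 in miR-142 KO against WT, 24 to 30 in CP CML against WT and 28 to 32 in BC CML against miR-142 KO. For the difference between the miR-142 effects it was 3 in DESeq2 and 2 under upper quartile normalization in place of 1, and 1 to 4 without 1 library. Upper quartile normalization lowered the median of members in miR-142 KO against WT to 0.09 and in CP CML against WT to 0.05, with medians over all genes of -0.04 and -0.06. Without 1 library, paralog shares past the threshold numbered 2 to 5 in miR-142 KO against WT and 2 to 6 in BC CML against miR-142 KO, 4 in each with all libraries. They numbered 4 to 5 in BC CML against CP CML and 4 to 6 in CP CML against WT. With fewer libraries the smallest exact p is larger. Scarce genes such as Sec16b, Sec31b, Copz2 and Trappc2 had SE among the largest.

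Beside the calls named in the report as lost without 1 library, the following were lost on leaving out any 1 of the libraries in parentheses, in CP CML against WT, Cog1 (WT 3, 4, 5, CP CML 1, 5, 6), Cog8 (WT 1, 2, 3, 5, CP CML 2, 4, 5, 6), Cope (WT 1, 4, 5, CP CML 2, 4), Tmed4 (WT 1), Tmed7 (WT 1, 4) and Trappc11 (WT 1, 4, 6, CP CML 2), with adjusted p up to 0.158. Likewise for BC CML against miR-142 KO, Cog1 (miR-142 KO 4, 5, BC CML 1, 5), Cog5 (miR-142 KO 3, 4, 5, 6, BC CML 3, 5), Sec24d (miR-142 KO 5, BC CML 1, 4), Tmed4 (miR-142 KO 1, BC CML 4, 5), Tmed5 (miR-142 KO 2, 4, BC CML 1, 4) and Tmed7 (miR-142 KO 2, BC CML 1, 4), with adjusted p up to 0.0915. Settings other than leaving out a library also ended calls. Upper quartile normalization did so for Copg2 and Trappc2l in miR-142 KO, for Trappc11 in BC CML against CP CML, for Cope, Tmed4, Tmed7 and Trappc11 in CP CML and for Tmed4 in BC CML against miR-142 KO. Using only the 12 libraries compared did so for Copg2 and Trappc2l in miR-142 KO, for Cog8 and Cope in CP CML and for Cog1, Cog5, Tmed4 and Tmed7 in BC CML against miR-142 KO. The likelihood ratio test did so for Sec24b and Trappc6a in BC CML against CP CML and for Cog8, Tmed4 and Trappc11 in CP CML. Having no filter did so for Trappc6a in BC CML against CP CML and for Cog8, Cope, Tmed4 and Trappc11 in CP CML, and the filter of 1 CPM did so for Cog8 there. The highest adjusted p among these was 0.172.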
